A study of Rattus norvegicus with 22 samples.

Results

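The phagocyte NADPH oxidase is described here through 5 genes, Cybb, Cyba, Ncf1, Ncf4 and Rac2, out of 17172 gene names in a table of RNA-seq read counts from rat hippocampus. The list was named with measured values of these same samples in view, so the genes were chosen by their expression after injury, and everything said of their levels and fold changes is a description with no test. Companion genes of the pathway were read from the same fit with p-values adjusted over all tested genes; their lists too were drawn up with earlier results of these data known. All 5 genes were in the table and all 5 passed the filter on low counts that left 12875 genes to be tested.

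Polyadenylated RNA came from the hippocampus on the injured side of 14 adult male Sprague-Dawley rats. Rats of the TBI groups received a lateral fluid percussion (LFP) injury, in which a pulse of fluid strikes the exposed dura, and sham rats had the craniectomy and the same anesthesia without the pulse. The groups were Sham day 1 (n = 2), TBI day 1 (n = 4), Sham day 14 (n = 4) and TBI day 14 (n = 4), with 1 library for each rat, and all animals, shams included, therefore carry the effects of surgery. Total counts were between 15065540 and 23743703 per library. The tissue is a whole hippocampus, so more cells of a type and more RNA per cell cannot be told apart in any value below.

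Libraries also differed in a way the groups do not explain. The summed level of 14 choroid plexus markers was 9029 CPM (counts scaled to a common library total) in Sham day 1 replicate 1, 1580 CPM in TBI day 14 replicate 2 and 7718 CPM in TBI day 14 replicate 3, and no more than 33.4 CPM in the other 11 libraries. With only 2 sham rats at day 1 and 1 of them in this set, the day 1 differences of the 5 genes are given below with and without it, as are the counts of called genes in the pathway lists.

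The oxidase moves electrons from cytosolic NADPH across a membrane to oxygen and so makes superoxide, the first product of the respiratory burst. Its membrane core is a pair of proteins, gp91phox (NOX2), the catalytic flavocytochrome subunit encoded by Cybb, and its stabilizing partner p22phox, encoded by Cyba. In resting cells the cytosolic parts, held apart from the core, include p47phox (Ncf1), the organizer that carries the others to the membrane once it is phosphorylated, and p40phox (Ncf4), which binds a phosphoinositide of phagosome membranes. The small GTPase Rac2, or Rac1, must also be loaded with GTP. In brain these genes are known from microglia, from macrophages of the brain borders and from blood-borne neutrophils and monocytes.

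Upstream sequence was at hand for 3 of the 5 genes, and it is shown because PU.1 and C/EBP family factors are known regulators of myeloid genes and several of their genes were counted in the same libraries. The 250 bases before the annotated start of each gene are from RefSeq on build GRCr8, at chrX:16065066-16065315 on the minus strand for Cybb, chr19:67404215-67404464 on the minus strand for Cyba and chr12:28121635-28121884 on the plus strand for Ncf1. Capitals mark matches to the motifs searched on both strands.
Cybb: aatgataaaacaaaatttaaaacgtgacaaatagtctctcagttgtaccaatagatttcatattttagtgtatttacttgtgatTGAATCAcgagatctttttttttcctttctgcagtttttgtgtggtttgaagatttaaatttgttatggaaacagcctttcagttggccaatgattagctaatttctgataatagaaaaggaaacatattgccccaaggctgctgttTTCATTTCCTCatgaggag
Cyba: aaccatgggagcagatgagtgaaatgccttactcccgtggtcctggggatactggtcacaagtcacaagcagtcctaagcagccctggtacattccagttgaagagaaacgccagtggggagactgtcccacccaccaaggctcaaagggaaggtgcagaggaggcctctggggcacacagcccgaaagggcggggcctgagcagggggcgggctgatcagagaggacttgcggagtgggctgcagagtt
Ncf1: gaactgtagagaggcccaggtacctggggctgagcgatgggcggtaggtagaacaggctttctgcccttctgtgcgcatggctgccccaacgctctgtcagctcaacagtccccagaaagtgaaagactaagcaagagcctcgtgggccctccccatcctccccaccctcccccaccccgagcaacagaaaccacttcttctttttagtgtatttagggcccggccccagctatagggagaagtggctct
The motifs were GAGGAA, the core of PU.1 sites, GGAANNGAA, a composite of ETS and IRF sites, TGANTCA, a loose pattern for AP-1 with any base at its centre, and TTGCNNAA for C/EBP. Cybb held GAGGAA on the minus strand at bases 14 to 9 before its start, overlapped by GGAANNGAA at bases 19 to 11, and TGANTCA at bases 166 to 160. The last match reads TGAATCA, and no AP-1 site is named from it. Over 33469 rat promoters of the same length, 23.3% held GAGGAA, 7.74% the composite, 6.34% TGANTCA and 9.22% TTGCNNAA, so a match is common and is only a description of these letters. None of the 4 motifs was found in these windows of Cyba and Ncf1. The windows also differed in base composition, with 32.0% G and C in Cybb, 59.6% in Cyba and 58.4% in Ncf1, beside a median of 51.2% over all promoters. Promoters of Ncf4 and Rac2 were not analysed here. In the GRCr8 annotation these last 2 genes lie on chromosome 7 with 9 protein-coding genes between them, among them Csf2rb and Il2rb, which encode cytokine receptor chains.

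Cybb, the catalytic subunit, had the lowest median count of the 5 in every group. Its read counts were 21 and 7 in the Sham day 1 libraries, 42, 188, 166 and 222 after TBI at day 1, 14, 6, 10 and 10 in the day 14 shams, and 22, 13, 22 and 94 after TBI at day 14. All 4 TBI day 1 libraries lay above both of their shams, whereas at day 14 the lowest TBI library lay within the sham range and 1 library, replicate 4, stood well above the other 3. Mean levels were 0.727 ± 0.572 CPM in the day 1 shams (SD, n = 2), 6.84 ± 3.29 after TBI at day 1 (SD, n = 4), 0.591 ± 0.234 in the day 14 shams (SD, n = 4) and 2.07 ± 1.95 after TBI at day 14 (SD, n = 4). On the log2 scale the TBI-to-sham difference was 3.25 ± 0.82 (SE) at day 1, a 9.50-fold difference, and 1.82 ± 0.64 at day 14. The day 14 value was 0.90 without TBI day 14 replicate 4.

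Cyba, the partner that stabilizes the catalytic subunit, was measured on many more reads. Its counts were 174 and 118 in the day 1 shams, 745, 941, 1089 and 750 after TBI at day 1, 126, 132, 109 and 149 in the day 14 shams, and 370, 394, 416 and 618 after TBI at day 14. Every injured library lay above every sham library at both days. The means were 7.41 ± 2.78 CPM (SD, n = 2) against 40.1 ± 6.95 (SD, n = 4) at day 1, and 7.55 ± 1.11 against 25.2 ± 5.18 (SD, n = 4 each) at day 14. These were differences of 5.42-fold at day 1 and 3.34-fold at day 14.

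Ncf1, the organizer subunit, was the member whose level was higher at day 14 than at day 1 after TBI. Its counts were 134 and 108 in the day 1 shams, 436, 522, 639 and 487 after TBI at day 1, 137, 145, 130 and 157 in the day 14 shams, and 871, 854, 1055 and 1333 after TBI at day 14. The 4 groups did not overlap between injury and sham at either day, nor between the injured groups. In order, mean levels were 6.10 ± 1.58 CPM in the day 1 shams (SD, n = 2), 8.32 ± 0.876 in the day 14 shams, 23.7 ± 3.76 after TBI at day 1 and 57.6 ± 9.08 after TBI at day 14 (SD, n = 4 each). The shams overlapped, since Sham day 1 replicate 1 had 7.22 CPM and the lowest Sham day 14 library 7.03 CPM. The TBI-to-sham difference was 3.90-fold at day 1 and 6.93-fold at day 14.

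Ncf4, the phosphoinositide-binding subunit, had the steepest day 1 difference. Its counts were 17 and 13 in the day 1 shams, 685, 575, 580 and 367 after TBI at day 1, 31, 47, 18 and 36 in the day 14 shams, and 94, 92, 115 and 104 after TBI at day 14. No 2 of the 4 groups overlapped in CPM, with TBI day 1 at the top, TBI day 14 next, Sham day 14 below it and Sham day 1 lowest. Of all tested genes, 20.1% had both Sham day 1 libraries below every Sham day 14 library and 21.3% had both above, so that separation is common. The means were 0.758 ± 0.224 CPM in the day 1 shams (SD, n = 2), 25.5 ± 7.93 after TBI at day 1, 1.95 ± 0.758 in the day 14 shams and 5.71 ± 0.377 after TBI at day 14 (SD, n = 4 each). The difference was 33.6-fold at day 1 and 2.94-fold at day 14. Because the Sham day 1 level was itself low, the day 1 value depended on the baseline, and it was 13.1-fold against the Sham day 14 libraries.

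Rac2, the GTPase of blood and myeloid cells, followed Cyba closely. Its counts were 169 and 87 in the day 1 shams, 641, 1067, 1164 and 765 after TBI at day 1, 92, 98, 84 and 103 in the day 14 shams, and 393, 328, 479 and 520 after TBI at day 14. Injured and sham libraries were separate at both days. The means were 6.56 ± 3.60 CPM (SD, n = 2) against 41.0 ± 9.38 (SD, n = 4) at day 1, and 5.52 ± 0.672 against 24.1 ± 3.61 (SD, n = 4 each) at day 14. These were differences of 6.28-fold and 4.38-fold.

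**Figure D1:**
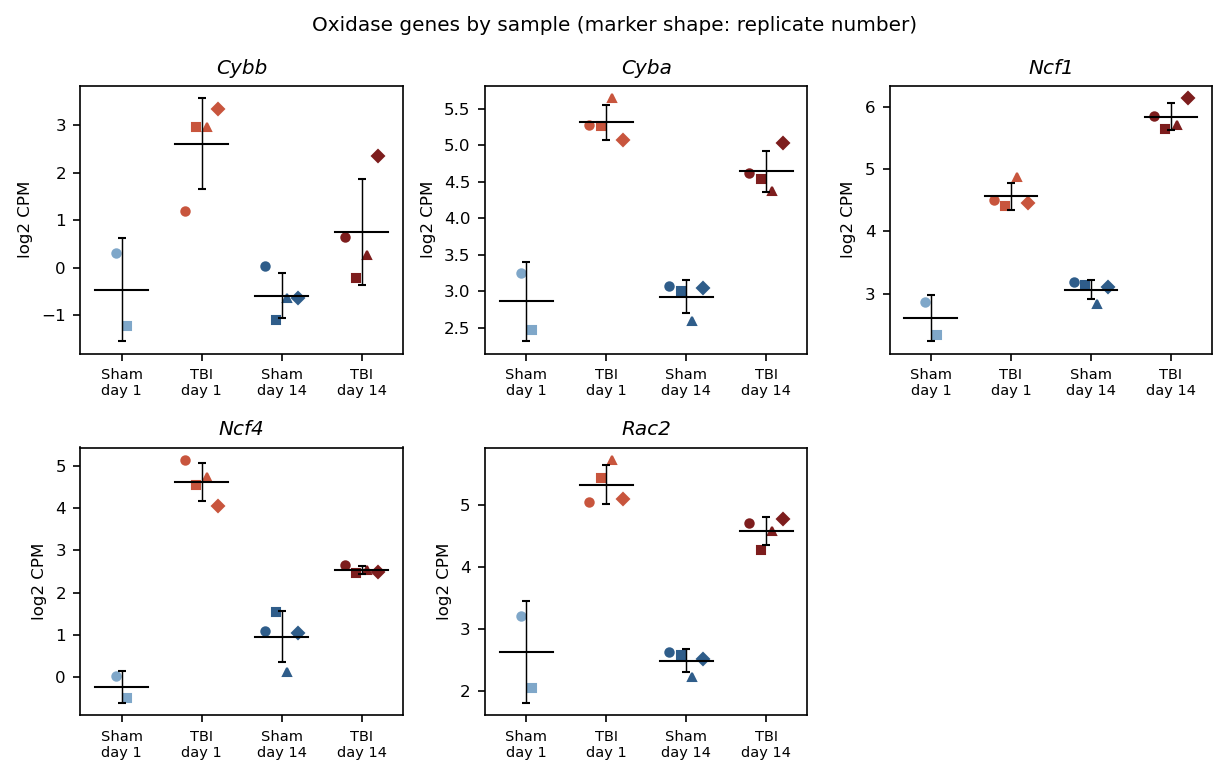
Level of each oxidase gene in every library, in log2 CPM (vertical axes, each with its own scale) for the 4 groups (horizontal axis); points are rats, horizontal bars are group means and vertical bars are SD (n = 2 for Sham day 1, n = 4 for the others). All TBI day 1 libraries lie above the day 1 shams in every panel, as they do for 16.7% of all tested genes, Cybb overlaps with sham at day 14, where 9.13% of tested genes have all TBI libraries above the shams, and Ncf1 is the panel in which TBI day 14 is the highest group.

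In the fit over all 14 libraries, 5 of 5 members were called higher in TBI than in sham at day 1, where 11.2% of all tested genes were called higher and 7.93% lower at an adjusted p under 0.05. At day 14 it was 4 of 5, all but Cybb, where 4.07% of tested genes were called higher and 0.365% lower. The choice of the genes used these contrasts, so nothing is read from the counts. Leaving out Sham day 1 replicate 1, the library rich in choroid plexus markers, made each day 1 difference larger: 20.8-fold for Cybb, 7.35-fold for Cyba, 4.75-fold for Ncf1, 42.0-fold for Ncf4 and 10.2-fold for Rac2. Leaving out Sham day 1 replicate 2 instead gave 6.02-fold for Cybb, which was then no longer called, 4.27-fold for Cyba, 3.28-fold for Ncf1, 27.6-fold for Ncf4 and 4.50-fold for Rac2. Without all 3 libraries rich in choroid plexus markers, the day 14 differences were 5.59-fold for Cybb, 3.85-fold for Cyba, 7.83-fold for Ncf1, 3.06-fold for Ncf4 and 4.93-fold for Rac2. That fit kept only replicates 1 and 4 of TBI day 14, which had 22 and 94 counts of Cybb.

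The members differed in their injured level between day 1 and day 14, compared in a fit with no batch term. Ncf1 was 2.43-fold higher after TBI at day 14 than after TBI at day 1 (1.28 ± 0.16 on the log2 scale, SE), and the other 4 were lower: Ncf4 by 4.46-fold, Cybb by 3.29-fold, Rac2 by 1.70-fold and Cyba by 1.59-fold. In this comparison 17.6% of tested genes were called higher and 21.9% lower, and the members' calls were 1 higher and 4 lower. The calls of Cybb, Cyba and Rac2 were lost without the 3 libraries rich in choroid plexus markers, with log2 differences of -1.04, -0.46 and -0.59. The difference of Ncf1 was then 1.46 and that of Ncf4 -2.10. Only replicates 1 and 4 of TBI day 14 remained in that fit. The Cybb call was also lost when any 1 of TBI day 1 replicates 2, 3 and 4 or TBI day 14 replicates 1, 2 and 3 was left out, with log2 differences from -1.66 to -1.44. The ranges of Cybb in the injured groups overlapped between the days, and those of the other 4 members did not, where 16.7% of all tested genes had every TBI day 14 library above every TBI day 1 library and 19.1% had every one below.

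Between the shams, Ncf4 was 2.57-fold lower in the day 1 shams than in the day 14 shams and was called lower, as were 7.88% of tested genes, and the other 4 members were not called. The Ncf4 call was lost when either Sham day 1 library, or Sham day 14 replicate 1, 2 or 4, was left out. The log2 differences between the shams were -0.45 ± 0.21 (SE) for Ncf1, 0.24 ± 0.28 for Rac2, 0.28 ± 0.83 for Cybb and -0.03 ± 0.25 for Cyba. The difference between the TBI effects of the days was 3.52 ± 0.50 on the log2 scale for Ncf4, the 1 member called, where 2.24% of tested genes were called with a larger effect at day 1 and 1.44% with a larger effect at day 14. For the others it was 1.43 ± 1.01 for Cybb, 0.70 ± 0.32 for Cyba, 0.52 ± 0.36 for Rac2 and -0.83 ± 0.26 for Ncf1, none of them called by edgeR. The difference for Ncf1 was called in 1 of 22 alternatives, by DESeq2 (-0.84), which is a description because the genes were chosen by their values.

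**Figure D2:**
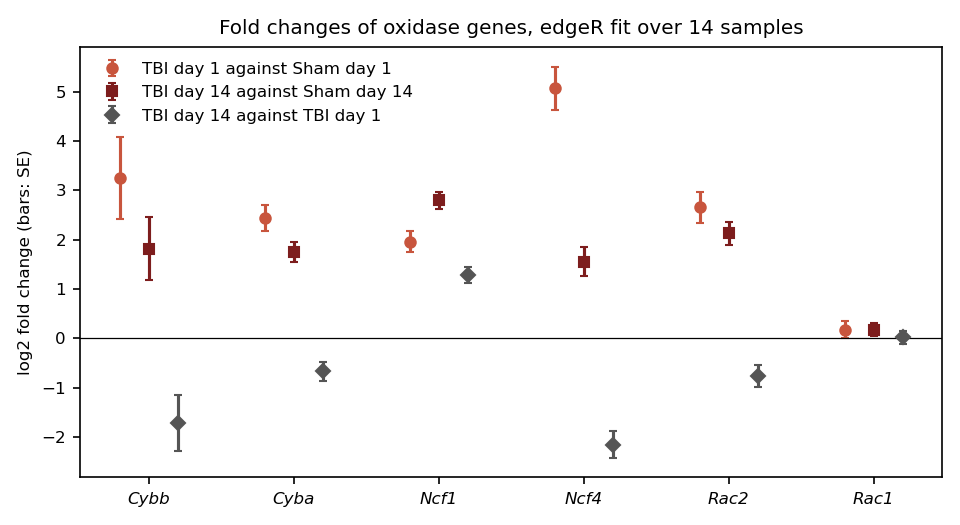
Log2 fold change (vertical axis) of the 5 members and of Rac1 (horizontal axis) in 3 comparisons, with bars of 1 SE from the edgeR fit over 14 libraries. Ncf4 has the highest day 1 value at 5.07, Ncf1 is the gene above 0 in all 3 comparisons by more than 1 log2 unit, and Rac1 stays within 0.18 of 0.

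Ratios of reads within a library do not depend on its depth or scaling, and for a given pair of genes their lengths cancel when libraries are compared. For every 100 reads of Cyba, Ncf1 had 77.0 and 91.5 reads in the Sham day 1 libraries, 55.5 to 64.9 after TBI at day 1, 105 to 119 in the day 14 shams and 216 to 254 after TBI at day 14. No 2 groups overlapped, and the injured groups lay on opposite sides of the shams. How often ratios of other gene pairs separate like this was not computed, so no separation of ratios here is read as particular to these genes. For every 100 reads of Cyba, Ncf4 had 9.77 and 11.0 reads in the day 1 shams, 48.9 to 91.9 after TBI at day 1, 16.5 to 35.6 in the day 14 shams and 16.8 to 27.6 after TBI at day 14. Here TBI day 1 stood apart from all other groups, and TBI day 14 lay within the range of its shams. Rac2 and Cyba kept the nearest to a fixed ratio, with 103 and 136 reads of Cyba for every 100 of Rac2 in the day 1 shams, 88.2 to 116 after TBI at day 1, 130 to 145 in the day 14 shams and 86.8 to 120 after TBI at day 14.

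**Figure D3:**
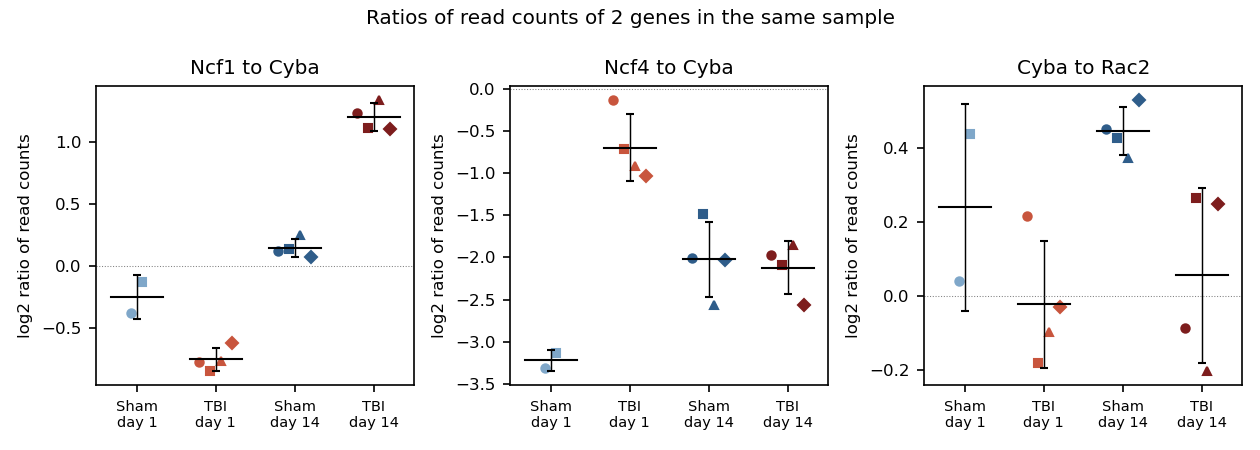
Log2 ratio of the read counts of a pair of genes in the same library (vertical axes), for the 4 groups; points are rats, with means and SD. The ratio of Ncf1 to Cyba is lowest in TBI day 1 and highest in TBI day 14, that of Ncf4 to Cyba is highest in TBI day 1, and that of Cyba to Rac2 overlaps between the injured groups.

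Rac1, the broadly expressed GTPase that can take the place of Rac2, had 2283 and 2746 counts in the day 1 shams, 2193 to 3674 after TBI at day 1, 1681 to 2865 in the day 14 shams and 2062 to 2946 after TBI at day 14. The groups overlapped, and neither day passed the test (0.17 ± 0.17, adjusted p = 0.497, and 0.18 ± 0.14, adjusted p = 0.72, on the log2 scale). Rap1a, a small GTPase that was found with the flavocytochrome, did not pass either, at 0.48 ± 0.18 on day 1 (adjusted p = 0.0756) and 0.17 ± 0.15 on day 14 (adjusted p = 0.754). At day 1 Rap1a was called without TBI day 1 replicate 1 (0.59, adjusted p = 0.0182) and with Sham day 14 as the baseline (0.99, adjusted p = 8.83e-05). Of the 9 listed NOX and DUOX genes other than NOX2, the other catalytic subunits and their partners, 5 were too low to be tested (Nox1, Nox3, Nox4, Duoxa1 and Duoxa2). Among these, Duoxa1 had 0 to 1 counts in the day 1 shams and 6 to 9 after TBI at day 1. It had 0 to 1 in the day 14 shams and 0 to 3 after TBI at day 14. Nox4 went the other way at day 1, with 0 to 4 counts in the shams and 0 after TBI. Both are singled out after their values were seen. Of the 4 tested, Noxo1, Noxa1, Duox1 and Duox2, edgeR called 0 at either day, with 0 at an unadjusted p under 0.05 and 0 by limma-voom or DESeq2. Their counts were between 1 and 32 in every library, so a change of modest size was not detectable at this depth. Cybc1 and Hvcn1, a chaperone of the core and a proton channel, were not analysed here.

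The kinases and phospholipase that pass receptor signals to p47phox were read next. At day 1, 7 of 15 were called higher and 1 lower, and at day 14 it was 5 higher and 0 lower. Over all tested genes 11.2% were called higher and 7.93% lower at day 1, and 4.07% and 0.365% at day 14. These shares stand beside every list count below, and the 1 lower kinase is near its share. The median log2 fold change of the list was 0.50 at day 1 and 0.55 at day 14, beside -0.02 and -0.03 over all tested genes. Pik3r5, a regulatory subunit of phosphoinositide 3-kinase gamma, rose by 1.98 ± 0.37 at day 1 (SE; adjusted p = 0.00196) and by 1.65 ± 0.28 at day 14 (adjusted p = 0.00222). Syk, the kinase below Fc receptors and dectin-1, rose by 1.15 ± 0.20 and 1.03 ± 0.16 (adjusted p = 0.0015 and 0.000897). Prkcd, a protein kinase C that phosphorylates p47phox, rose by 1.14 ± 0.28 and 1.71 ± 0.23 (adjusted p = 0.0125 and 0.000264). Plcg2 also rose at both days, by 1.27 ± 0.29 and 0.89 ± 0.23 (adjusted p = 0.00793 and 0.0388), and Btk at day 1 by 1.92 ± 0.40. The day 14 call of Plcg2 was lost by limma-voom (adjusted p = 0.0585) and without Sham day 14 replicate 2, 3 or 4 or TBI day 14 replicate 1, 2 or 4 (adjusted p from 0.0648 to 0.146). Btk at day 14 had 1.18 ± 0.32 with an adjusted p of 0.0533 in edgeR, and was called by DESeq2 (adjusted p = 0.00888) and in the fits without either Sham day 1 library, TBI day 1 replicate 1, Sham day 14 replicate 4 or TBI day 14 replicate 2. At day 14 DESeq2 called 8 of the 15 kinases and limma-voom 4. Pak1, a kinase below Rac that is abundant in neurons, fell by 0.67 ± 0.19 on the log2 scale at day 1 (adjusted p = 0.0213), but was 0.46 higher against the Sham day 14 baseline. Without Sham day 1 replicate 2, 2 kinases were called higher at day 1 and 0 lower.

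Of 13 Rac exchange factors and other regulators, 5 were called higher and 1 lower at day 1, and 3 higher and 0 lower at day 14, with median log2 fold changes of 0.41 and 0.19. The 1 lower is near the 7.93% of all tested genes called lower at day 1. Vav1, the exchange factor of blood cells that loads Rac with GTP, rose by 2.27 ± 0.32 at day 1 (adjusted p = 0.000229) and by 2.14 ± 0.25 at day 14 (adjusted p = 8.49e-05). Arhgdib, the dissociation inhibitor that holds Rac2 in the cytosol, rose by 1.91 ± 0.27 and 1.16 ± 0.21, and Arhgap25, which switches Rac off, by 0.61 ± 0.14 and 1.02 ± 0.12. Arhgdia and the scaffold Iqgap1 rose at day 1, by 0.64 ± 0.18 and 0.78 ± 0.17, and had 0.27 ± 0.14 and -0.25 ± 0.14 at day 14, where neither passed the test. Both day 1 calls were lost in edgeR with only the groups compared (adjusted p = 0.188 and 0.057). For Iqgap1 the difference between the days was itself called (1.03 ± 0.22, adjusted p = 0.0192), and for Arhgdia it was not (0.37 ± 0.23, adjusted p = 0.403). Tiam1, an exchange factor known in neurons, fell by 1.06 ± 0.34 at day 1 (adjusted p = 0.04), with ranges that overlapped. The difference was -0.18 without Sham day 1 replicate 2 (adjusted p = 0.824) and -0.54 against the Sham day 14 libraries (adjusted p = 0.134). The call was also lost by limma-voom (adjusted p = 0.067) and without TBI day 1 replicate 1 or 3, Sham day 14 replicate 1, 2 or 4, or TBI day 14 replicate 1, 2 or 4. Without Sham day 1 replicate 2 the day 1 counts were 2 higher and 0 lower.

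Receptors listed with the burst were mostly higher after TBI at both days. Not all of them start it: the list includes the inhibitory Fcgr2b, which is also counted among the general myeloid markers below. Of 16 tested, 13 were called higher at day 1 and 14 at day 14, with 0 lower at either, and the medians were 2.395 and 1.87. Clec7a, the beta-glucan receptor dectin-1, had 3 and 8 counts in the Sham day 1 libraries and 317 to 807 after TBI at day 1, 1 to 5 in the day 14 shams and 103 to 482 after TBI at day 14. It rose by 6.65 ± 0.75 at day 1 (adjusted p = 4.08e-05) and by 5.88 ± 0.57 at day 14 (adjusted p = 1.96e-05). C5ar1, the receptor of complement C5a, rose by 3.82 ± 0.37 and 1.81 ± 0.28, with a larger effect at day 1 (difference 2.01 ± 0.44, adjusted p = 0.021). The activating Fc receptor Fcgr3a rose by 3.70 ± 0.36 and 1.76 ± 0.26 (difference 1.94 ± 0.41, adjusted p = 0.019). Fcgr1a rose by 3.12 ± 0.38 and 1.46 ± 0.28, and the inhibitory Fcgr2b by 3.00 ± 0.35 and 2.89 ± 0.27. Reads of 50 bases may be shared within this family of related sequences. Itgb2, the beta chain of the complement receptor CR3, rose by 2.43 ± 0.35 and 2.42 ± 0.26.

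Trem2, a lipid-sensing receptor of microglia, had the other order. It had 207 and 422 counts in the day 1 shams, 331 to 622 after TBI at day 1, 223 to 408 in the day 14 shams and 1145 to 1666 after TBI at day 14. The day 1 difference of 0.34 ± 0.33 did not pass the test (adjusted p = 0.509), the day 14 rise was 2.12 ± 0.28 (adjusted p = 0.000231), and the contrast of both effects, day 1 minus day 14, was -1.79 ± 0.42 (adjusted p = 0.0298).

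Of 13 myeloid transcription factors, 9 were called higher at day 1 and 7 at day 14, with 0 lower and medians of 0.87 and 0.80. Spi1, which encodes PU.1, rose by 1.98 ± 0.22 at day 1 (adjusted p = 4.03e-05) and by 1.88 ± 0.17 at day 14 (adjusted p = 1.38e-05). Irf8, a partner of PU.1 at composite sites, rose by 1.51 ± 0.28 and 2.41 ± 0.23. It was 0.77 ± 0.21 higher after TBI at day 14 than after TBI at day 1 (adjusted p = 0.0102). In that comparison 4 of the 13 factors were called higher and 7 lower, beside 17.6% and 21.9% of all tested genes. Irf1, an interferon-responsive factor, rose by 1.43 ± 0.27 and 0.80 ± 0.21 (adjusted p = 0.00228 and 0.0409), and Cebpa, a C/EBP factor of myeloid cells, by 0.75 ± 0.24 and 1.16 ± 0.19 (adjusted p = 0.04 and 0.0014). The Irf1 call at day 14 was lost without any 1 of the 8 libraries of that day, and the Cebpa call at day 1 without either Sham day 1 library, TBI day 1 replicate 3 or 4, Sham day 14 replicate 2 or 4, or TBI day 14 replicate 2 or 3. Cebpe, a factor of granulocyte maturation, rose at day 1 by 4.15 ± 1.13 (adjusted p = 0.0195) and had 1.12 ± 1.16 at day 14 (adjusted p = 0.813). These values rest on few reads, with 0 to 1 counts in either sham group, 9 to 15 after TBI at day 1 and 0 to 3 after TBI at day 14. The difference between the days of the TBI effect was called for 0 of the 13 factors. Ikzf1 rose at day 14 by 1.32 ± 0.27 and had 0.96 ± 0.33 at day 1 (adjusted p = 0.0521 in edgeR), where limma-voom and DESeq2 called it higher (adjusted p = 0.0365 and 0.0226), as did edgeR without Sham day 1 replicate 1 (1.53, adjusted p = 0.0174) and with Sham day 14 as the baseline (1.76, adjusted p = 0.000112). Without Sham day 1 replicate 2 the day 1 count was 2 of the 13.

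**Figure D4:**
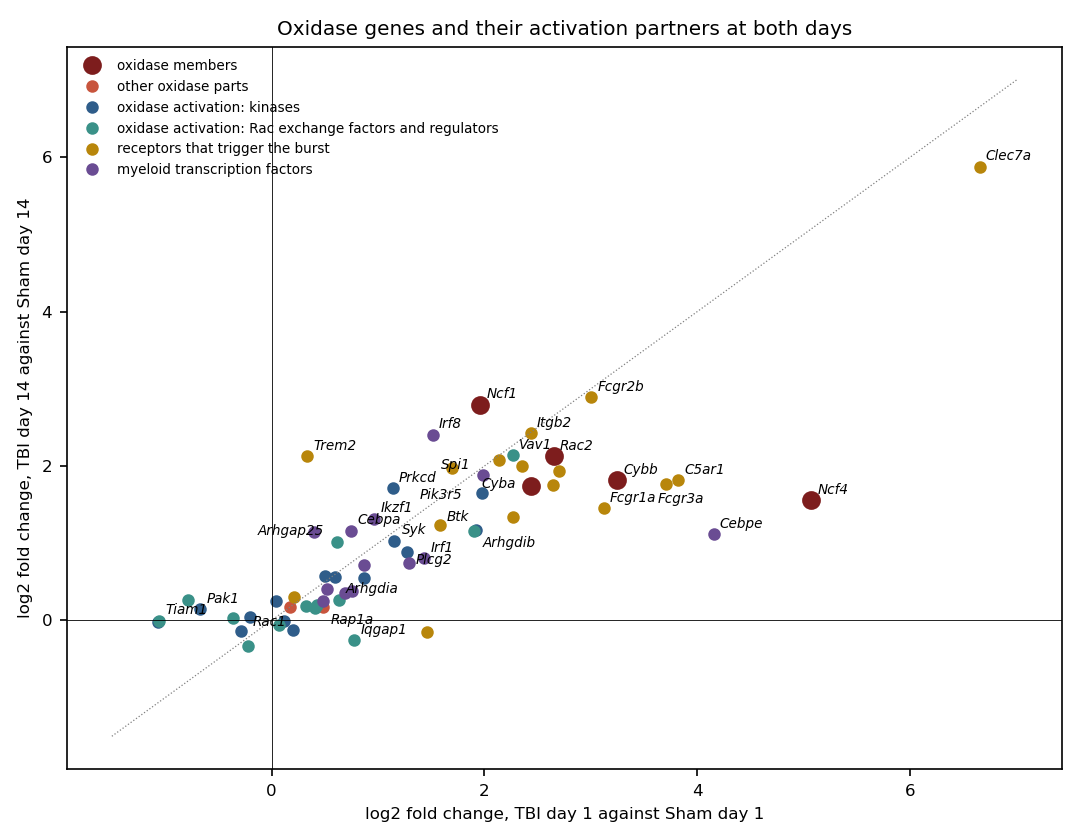
Log2 fold change of TBI against sham at day 1 (horizontal axis) and at day 14 (vertical axis) for the members (large dark red points), other oxidase parts, kinases, Rac regulators, receptors and myeloid transcription factors, with the dotted line where both days are equal. Ncf4, C5ar1 and Cebpe lie below the line, and Ncf1, Irf8 and Trem2 above it. For Cebpe, Irf8 and Ncf1 the difference between the days was not called by edgeR.

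The supply of NADPH and the enzymes that handle oxidants showed smaller differences. Of 9 NADPH-supply genes, 2 were called higher at day 1 and 0 lower. Taldo1, an enzyme of the pentose phosphate pathway, rose by 0.64 ± 0.13 and Mthfd1, an enzyme of folate metabolism, by 0.52 ± 0.14. At day 14 edgeR called 0 of the 9, with 1 at an unadjusted p under 0.05 and 0 by limma-voom or DESeq2. Without Sham day 1 replicate 2, 0 were called at day 1. Of 20 oxidant and antioxidant enzymes, 5 were called higher at day 1 and 1 at day 14, with 0 lower at either. Over all tested genes 11.2% were called higher at day 1 and 4.07% at day 14, so the day 14 count is near that share. Hmox1, heme oxygenase, rose at both, by 3.74 ± 0.35 (adjusted p = 8.93e-06) and 1.95 ± 0.25 (adjusted p = 0.000187), with a larger effect at day 1 (difference 1.79 ± 0.39, adjusted p = 0.0213). The peroxiredoxins Prdx1 and Prdx5 and thioredoxin, Txn1, rose at day 1 by 0.93 ± 0.21, 0.70 ± 0.16 and 0.88 ± 0.26. Without Sham day 1 replicate 2, 1 of the 20 was called higher and 1 lower. With Sham day 14 as the baseline 14 were called higher, but Txn1 was not (0.23, adjusted p = 0.367 in edgeR). The Txn1 call was also lost without TBI day 1 replicate 2 or 3 (adjusted p = 0.0547 and 0.0566). Without Sham day 1 replicate 1, the library rich in choroid plexus markers, the genes called higher at day 1 were 7 kinases, 6 Rac regulators, 13 receptors, 10 transcription factors, 3 NADPH-supply genes and 6 oxidant and antioxidant enzymes.

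Cell markers moved with these genes, and their part in the results was not tested. The summed level of 12 general myeloid markers was 494 and 826 CPM in the day 1 shams, 1247 to 1672 after TBI at day 1, 542 to 753 in the day 14 shams and 1349 to 2556 after TBI at day 14, with 9 of 12 called higher at day 1 and 12 of 12 at day 14. Aif1, Ptprc and Cd68 rose by 1.33 ± 0.23, 2.56 ± 0.33 and 3.85 ± 0.50 at day 1, and by 1.28 ± 0.18, 2.46 ± 0.25 and 4.93 ± 0.39 at day 14. Microglia markers had another course, with 0 of 10 called higher and 4 lower at day 1, and 6 higher and 0 lower at day 14. Their summed level was 420 and 628 CPM in the day 1 shams, 422 to 535 after TBI at day 1, 427 to 572 in the day 14 shams and 831 to 1413 after TBI at day 14. Tmem119, P2ry12 and P2ry13 had log2 fold changes of -1.90 ± 0.37 (adjusted p = 0.00299), -0.88 ± 0.24 and -1.0 ± 0.27 at day 1, and all 3 were called. At day 14 P2ry12 and P2ry13 rose by 1.25 ± 0.20 and 1.14 ± 0.23, and Tmem119 had 0.37 ± 0.31 (adjusted p = 0.748). The P2ry12 and P2ry13 calls at day 1 were lost without Sham day 1 replicate 1 (adjusted p = 0.159 and 0.23).

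Neutrophil markers were low in sum and highest at day 1 after TBI. Their 12 genes summed to 12.03 and 22.2 CPM in the day 1 shams, 57.4 to 111 after TBI at day 1, 14.0 to 31.1 in the day 14 shams and 37.7 to 49.6 after TBI at day 14, with 6 of 9 tested called higher at day 1 and 2 at day 14. The granule gene Elane, named after its values were seen, was at 0 in every library of the other groups and had 1 to 16 counts after TBI at day 1. Mpo, another granule gene of the list, went the other way, with 3 and 6 counts in the day 1 shams and 1 to 2 after TBI at day 1. S100a9, a calprotectin subunit, had 9 and 7 counts in the day 1 shams, 287, 561, 469 and 125 after TBI at day 1, 4, 2, 2 and 9 in the day 14 shams, and 8, 14, 11 and 8 after TBI at day 14. It rose by 5.32 ± 0.65 at day 1 (adjusted p = 7.72e-05) and had 1.21 ± 0.59 at day 14 (adjusted p = 0.414). S100a8 rose at day 1 by 5.31 ± 0.87 (adjusted p = 0.000833). Mpo, Camp and Ngp had at most 11 counts in any library and were not tested. Monocyte and border macrophage markers summed to 71.7 and 81.2 CPM in the day 1 shams, 130 to 198 after TBI at day 1, 73.5 to 88.0 in the day 14 shams and 61.9 to 108 after TBI at day 14. Of 10 tested, 5 were called higher at day 1, and at day 14 edgeR called 0, with 1 at an unadjusted p under 0.05 and 0 by limma-voom or DESeq2. Mrc1 and Cd163 rose at day 1 by 2.07 ± 0.48 and 2.88 ± 0.76, calls that were lost without Sham day 1 replicate 2 (adjusted p = 0.116 and 0.164).

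Set against the mean log2 CPM of the general myeloid markers in the same library, the members kept different courses. The log2 CPM of Ncf1 minus that mean was -1.79 ± 0.09 in the day 1 shams (SD, n = 2), -1.97 ± 0.20 after TBI at day 1, -1.19 ± 0.25 in the day 14 shams and -0.44 ± 0.18 after TBI at day 14 (SD, n = 4 each). Its TBI day 14 values did not overlap with those of any other group. The share of all genes that separate in such differences was not computed, for Ncf1 or for the members below. For Ncf4 it was -4.64 ± 0.09 in the day 1 shams, -1.91 ± 0.43 after TBI at day 1, -3.30 ± 0.67 in the day 14 shams and -3.74 ± 0.40 after TBI at day 14, and its TBI day 1 values stood above those of all other groups. For Cyba the difference was -1.54 ± 0.08, -1.22 ± 0.17, -1.33 ± 0.28 and -1.64 ± 0.13 in the same order, a narrower band in which the ranges of TBI and sham overlapped at day 14 and not at day 1. For Rac2 it was -1.77 ± 0.36, -1.20 ± 0.21, -1.77 ± 0.27 and -1.69 ± 0.27. Which cells hold the reads of these genes was not tested.

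**Figure D5:**
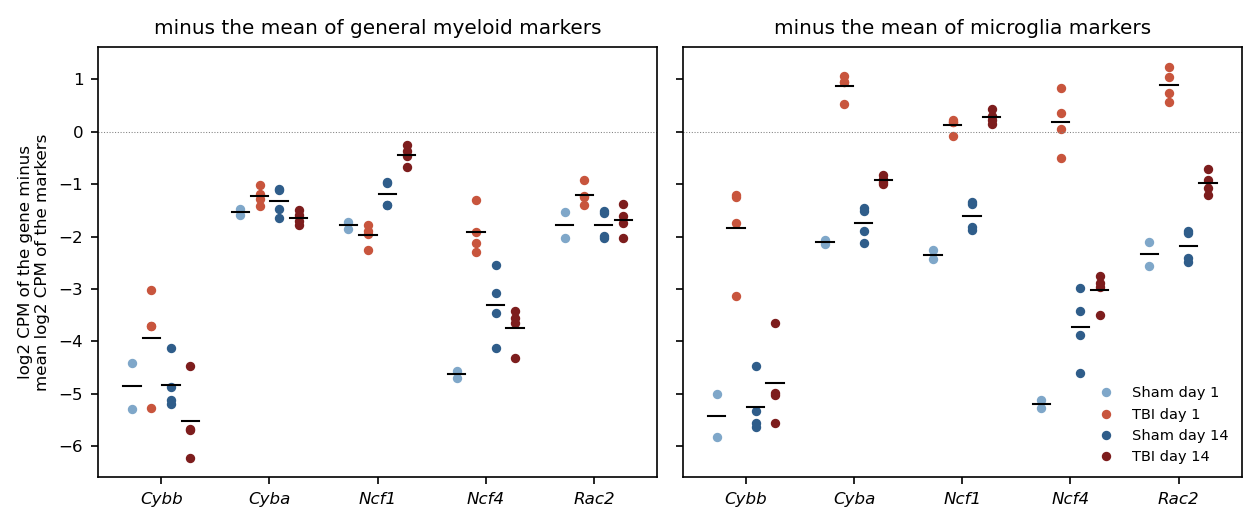
Log2 CPM of each member minus the mean log2 CPM of 12 general myeloid markers (left) or of 10 microglia markers (right) in the same library, by group; points are rats and bars are means. On the left Ncf1 is highest in TBI day 14 and Ncf4 in TBI day 1; on the right all 5 members lie higher in TBI day 1 than in Sham day 1.

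Other tissue markers were summed for the same libraries. Lymphocyte markers summed to between 2.03 and 23.0 CPM, and 2 of 4 tested, Cd2 and Cd8a, were called higher at day 1 and 0 at day 14. Cd2 had a mean of 0.0808 CPM in the day 1 shams and 3.25 CPM after TBI at day 1, and Cd8a 0.177 and 3.82 CPM; both are named after their values were seen. Endothelial markers summed to between 172 and 460 CPM, with Pecam1 the 1 of 6 called higher at day 1. Neuron markers summed to between 3171 and 10856 CPM, with the lowest library after TBI at day 1, and 4 of 10 were called lower at day 1 (Rbfox3, Slc17a7, Prox1 and Gad1, the last 3 likewise named after their values were seen). Astrocyte markers were 4535 and 7062 CPM in the day 1 shams, 11142 to 17281 after TBI at day 1, 4278 to 5387 in the day 14 shams and 7524 to 11368 after TBI at day 14. Gfap held most of that sum after TBI and was the 1 of 7 called higher, at both days, while the median log2 fold change of the list was -0.31 at day 1 and 0.03 at day 14.

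Likeness of profile was read as Pearson's r of log2 CPM over the 14 libraries among 11832 genes, given with no test because the libraries share the 4 groups. Among the members, Cyba and Rac2 were the most alike (r = 0.991) and Cybb and Ncf1 the least (r = 0.523), with 0.631 for Ncf1 and Ncf4 and 0.934 for Cyba and Ncf4. The 10 genes most like the mean of the members were Kcnn4, S100a4, Vat1, Itgal, Ptpn6, Myo1f, Rab32, Clec7a, Vav1 and Gpnmb, with r from 0.989 for Kcnn4, a calcium-activated potassium channel, to 0.982 for Gpnmb. Nearest to Ncf1 were Fgd2, Nckap1l, Hmha1, Unc93b1 and Slfn13, with r from 0.986 to 0.976. Nearest to Ncf4 was Bcl3, an atypical member of the NF-kappaB inhibitor family, at 0.984, followed by Mt2A, Ripk3, Fcgr3a and Sbno2 at 0.966 to 0.963. Cybb was nearest to Lyz2, Myo1e, Metrnl, Pik3ap1 and Anxa1, at 0.951 to 0.937, Cyba to Vat1, Rac2, Ptpn6, Kcnn4 and S100a4, and Rac2 to Arl11, Kcnn4, Cyba, Tyrobp and Ccl3. Among the members' lists of neighbours only those of Cyba and Rac2 had a gene in common, Kcnn4, so the separate lists of Ncf1 and Ncf4 are not particular to them.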

How the data were processed

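The counts deposited by the authors are whole reads per gene without normalization. Per the submitters' processing notes and the study's methods, 50-base reads of stranded libraries were aligned to rn5 with STAR 2.4.2a and counted on UCSC genes with featureCounts 1.5.0. The 14 samples were grouped by their labels. Quasi-likelihood models of edgeR 4.0.16 in R 4.3.3, with 1 mean per group, TMM factors and the default filter, gave two-sided p-values, adjusted by the Benjamini-Hochberg method over 12875 genes, threshold 0.05, after a check on simulated data. These p-values rest on the spread between rats. The paper states that its expression trajectories were corrected for a batch effect. The sample labels name no batch, so none was fitted here, and a batch that followed the day cannot be told apart from it. Log2 CPM used a prior count of 2. Alternatives were limma-voom (limma 3.58.1), DESeq2 1.42.0, other factors, filters, thresholds and baselines, the replicate numbers as a block, and each sample left out. The fit without the 3 libraries above 1000 CPM of choroid plexus markers was added after seeing the data.

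The members and the gene lists were chosen with earlier results of these data known. Named were all members, the other oxidase, NOX and DUOX genes, up to 4 called genes per pathway list, day and direction by fold change, the leading genes of 4 marker lists (other marker lists are given by their sums), and the 5 or 10 genes of nearest profile. Of the names, 2 occur more than once and 16726 matched a RefSeq symbol or synonym. Listed genes that the table did not name (Cybc1, Hvcn1, Pik3cg, Dock2, Fpr2 and Pgd among them) and the H3K4me3 peak lists were not analysed here, and some listed genes are not reported here. Figures were drawn with Python 3.11.15 and matplotlib 3.10.9.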

Additional observations from a re-analysis of the deposited data

Results flagged for a closer look

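Over 156 groups of 4 libraries, 10 had a library set far apart from the other 3 by Dixon's test at the 95% level, a test by which chance flags about 1 in 20 groups, so no pattern is read from them. Levels are in log2 CPM. Among the members this was Cyba in Sham day 14 replicate 3, at 2.58 with the nearest of the others at 3.01. Among companion genes it was Irf1 in TBI day 14 replicate 4 (4.49), Fcgr2b in TBI day 14 replicate 4 (6.12), Txn1 in TBI day 1 replicate 4 (5.03), Prdx5 in TBI day 14 replicate 3 (6.60) and Taldo1 in Sham day 14 replicate 3 (6.70). Among markers it was Ptprc in Sham day 14 replicate 4 (3.37), Cd68 in Sham day 14 replicate 3 (0.876), Mrc1 in Sham day 14 replicate 4 (2.07) and Cd163 in TBI day 14 replicate 4 (1.22).

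Among the 52 genes named with a fold change, the TBI effect differed between the days, by the contrast of both effects in edgeR, for 11. On the log2 scale, day 1 minus day 14, the difference was 3.52 for Ncf4, given as a description because the gene was chosen by its values, 1.03 for Iqgap1, 2.01 for C5ar1, 1.94 for Fcgr3a, 1.79 for Hmox1, 0.80 for Prdx5 and 4.11 for S100a9. It was -1.79 for Trem2, -2.27 for Tmem119, -2.14 for P2ry12 and -2.13 for P2ry13. Of up to 22 alternatives, the call was lost in 13 for Prdx5, 8 for Trem2, 4 for C5ar1 and S100a9, 3 for Fcgr3a and Hmox1, 2 for Iqgap1 and Tmem119, and 0 for Ncf4, P2ry12 and P2ry13. These differences use the 2 Sham day 1 libraries, 1 of which was rich in choroid plexus markers.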

How the results depend on the processing

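Over all alternatives, 537 of 570 fold changes of the members kept their direction and their side of the threshold, 23 lost the call, 3 gained it and 7 changed sign. All sign changes of members were in Sham day 1 against Sham day 14, where no call was lost by them: leaving out 1 library gave -0.85 to 0.94 for Cybb, -0.46 to 0.72 for Rac2 and -0.47 to 0.31 for Cyba on the log2 scale, and the fit without the 3 libraries rich in choroid plexus markers gave -0.84 for Cybb and -0.45 for Rac2. The count of members lower in Sham day 1 than in Sham day 14, 1 in the report, was 0 by limma-voom, at an adjusted p under 0.01, with only the groups compared and without the 3 libraries, and 0 to 1 when 1 library was left out. The count of members lower in TBI day 14 than in TBI day 1, 4 in the report, was 1 at an adjusted p under 0.01 and 1 without the 3 libraries. Cybb at day 14 was called in 2 of 22 alternatives, by DESeq2 and without the 3 libraries, and like all calls of members this is a description. The fit without the 3 libraries kept only replicates 1 and 4 of TBI day 14, with 22 and 94 counts of Cybb.

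Among companion genes, leaving out 1 library gave day 1 values of -0.78 to 1.54 for Noxa1, -0.88 to 0.47 for Duox2 and -0.16 to 1.09 for Trem2. At day 14 it gave -0.073 to 0.060 for Tiam1, -0.76 to 0.54 for Cd163, -0.18 to 0.42 for Noxo1, -1.23 to 0.95 for S100a8 and -0.033 to 0.96 for Duox2. At day 14 limma-voom gave 0.0018 for Tiam1, 0.15 for S100a8 and -0.074 for Cd163, and Tiam1 was 0.016 with at least 10 counts in every sample and 0.034 with only the groups compared. With Sham day 14 as the baseline of TBI day 1, Noxa1 was -1.04 and Pak1 0.46. The cause was not tested. Those values at day 14 and of Noxa1, Duox2 and Trem2 at day 1 did not pass the test in the report either. With only the groups compared, edgeR lost the day 1 calls of Plcg2, Pak1, Prkcd, Iqgap1, Arhgdia, Tiam1, Arhgap25, Cebpe and Irf1. Those of Cebpa, Prdx1, Txn1, Prdx5, Taldo1, Mthfd1, P2ry12 and P2ry13 were lost as well. Their adjusted p was from 0.0549 to 0.211. The day 14 call of Btk was gained there (adjusted p = 0.0324).

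The replicate numbers did not pair the samples: over 18 pairs of same-numbered samples the correlation of deviations was between -0.35 and 0.24, with 5 above 0.1. With the replicate block, 1468 genes were called higher and 1178 lower at day 1 (1437 and 1021 without it) and 475 and 46 at day 14 (524 and 47). Among the named genes the block ended the day 1 calls of Tiam1 (adjusted p = 0.0558) and Cebpa (0.0671), the day 14 call of Irf1 (0.0814) and the differences between the days of C5ar1 (0.0528) and Prdx5 (0.0501), gained Btk at day 14 (0.0372), and gave 0.021 for Tiam1 and -0.014 for Cd163 at day 14.

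Scaling by totals or a prior count of 0.5 moved 20 of 20 group means of the members by less than their SD. Spearman's rho ranked other genes nearest, with Arl11 first for the mean of the members (0.991). The difference between the days uses all 4 groups, so for it the setting with only the groups compared is the main fit itself. Few reads limit Cybb, and 2 libraries limit Sham day 1.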
